A study of Mus musculus with 6 samples.

Results

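Cxcr4 and 4 further genes of the brain chemokine system, Cxcl12, Ackr3, Cx3cl1 and Cxcl14, were described in hippocampal RNA of TonEBP+/- and wild-type mice. The 5 genes were found by symbol among the 24346 symbols listed in each library. The genes were chosen by name with the FPKM values of TonEBP+/- and wild-type libraries already seen, in which Cxcr4 differed, and the other 4 stand beside it as chemokine genes of brain. The differences between genotypes of these 5 genes are therefore given as a description, with their standard error and no test. There were 3 libraries from TonEBP+/- mice (HET 1 to HET 3) and 3 from wild-type littermates (WT 1 to WT 3). TonEBP, encoded by Nfat5, is the tonicity-responsive enhancer binding protein, a transcription factor of the NFAT family, and TonEBP+/- mice carry 1 disrupted allele while wild-type mice carry none. All animals were 12 months old and of a line crossed back to C57BL/6J, and the tissue was hippocampus. The position of the disruption within Nfat5 is not described, and the numbered libraries are not said to come from separate animals, so the spread between libraries may in part be technical. Values are given as FPKM, a fragment count divided by transcript length and library depth, which allows levels of different genes to be compared per length. The files hold log2(value + 1), and the reading of that value as FPKM was made from the numbers.

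Chemokines are small secreted proteins that bind heptahelical receptors coupled to inhibitory G proteins and guide the movement of cells. Cxcl12 is the ligand of Cxcr4, and this pair keeps Cajal-Retzius cells, interneurons and dentate progenitors on their paths during development and remains in use in the adult dentate gyrus, in vessels and in meninges. Ackr3 (formerly Cxcr7) binds Cxcl12 too, couples poorly to G proteins and removes the ligand from the extracellular space. Cx3cl1 (fractalkine) is a membrane-bound chemokine made by neurons, and its receptor Cx3cr1 sits on microglia. Cxcl14 is a chemokine of interneurons and epithelia whose signalling receptor is not settled.

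The stretches before the start sites of the 2 receptors of Cxcl12 are shown because Cxcr4 and Ackr3 share a ligand and differed in how they varied between the libraries. Each is the 250 bases upstream of the RefSeq start (GRCm38.p6), 5′ to 3′ on the strand of the gene. Cxcr4 occupies chromosome 1 from 128588199 to 128592293 on the minus strand and has 2 exons in its transcript of 1805 bases. Ackr3 occupies chromosome 1 from 90203980 to 90216751 on the plus strand and has 2 exons in a transcript of 3065 bases. The first stretch is chr1:128592300-128592549 on the minus strand and the second is chr1:90203730-90203979 on the plus strand. Capitals mark the motifs that were searched on both strands.
Cxcr4: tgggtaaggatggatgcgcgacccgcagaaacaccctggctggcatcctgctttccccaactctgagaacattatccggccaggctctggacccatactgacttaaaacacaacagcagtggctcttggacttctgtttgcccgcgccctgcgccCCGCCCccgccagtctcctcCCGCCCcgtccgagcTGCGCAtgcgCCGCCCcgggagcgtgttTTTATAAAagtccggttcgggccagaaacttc
Ackr3: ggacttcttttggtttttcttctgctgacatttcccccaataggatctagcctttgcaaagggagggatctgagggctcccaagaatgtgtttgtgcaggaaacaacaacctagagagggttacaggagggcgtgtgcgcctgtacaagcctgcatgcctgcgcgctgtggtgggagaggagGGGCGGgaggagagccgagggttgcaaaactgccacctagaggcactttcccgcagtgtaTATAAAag

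The Cxcr4 stretch held TGCGCA once, 60 to 55 bases before the start. This unit is repeated in the recognition sequence of Nrf1, a factor known to activate the human CXCR4 promoter, and 6.43% of the 32851 promoter windows of this length held it. Ackr3, Cxcl12, Cx3cl1 and Cxcl14 had no such match. As the unit was searched after a longer form of the site had been found before Cxcr4, nothing is read from its presence there. The GC box GGGCGG was found 3 times before Cxcr4, each match on the opposite strand and none sharing a base with TGCGCA, 5 times before Cxcl12 and once each before Ackr3 and Cx3cl1. It was in 32.74% of the windows. TATAAA, the letters of a TATA box, occurred before Cxcr4 as 2 overlapping matches on opposite strands, and once each before Ackr3 and Cx3cl1, against 12.37% of windows. TGGAAA, the core of the element bound by TonEBP, matched before 0 of the 5 genes and in 18.58% of windows. ACGTG, a form of the core of the hypoxia response element, matched before 0 of the 5 and in 16.57% of windows. The other form, GCGTG, was not searched, and it can be read in the Cxcr4 and Ackr3 stretches printed above. These matches describe letters in a window and not bound sites.

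The libraries overlapped in most respects and differed in a few. The step between low values corresponded to between 7920000 fragments (HET 1) and 12500000 fragments (HET 3) per library, an estimate rather than a deposited count. Nfat5 was at 8.25, 9.31 and 8.42 FPKM in HET 1 to HET 3, against 10.5, 8.39 and 9.72 FPKM in WT 1 to WT 3. The difference on the log2(FPKM + 1) scale was -0.12 (SE 0.0963, limma adjusted p = 1.00), and as a disrupted allele can still be transcribed, this does not check the labels. For TonEBP+/- against wild type, limma called 0 of 13122 genes (0%) at an adjusted p of 0.05, the smallest adjusted p being 0.383, and 484 (3.69%) had an unadjusted p under 0.05. The excitatory neuron markers Slc17a7 and Neurod6 were at 99.3 FPKM or more in all 6 libraries, as the labelled tissue has them. Summed thalamus and habenula markers were at 282, 163 and 154 FPKM in HET 1 to HET 3 and at 255, 278 and 265 FPKM in WT 1 to WT 3, so that HET 2 and HET 3 stood apart from the other 4.

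The receptor Cxcr4 was higher in every TonEBP+/- library than in every wild-type library. It was at 2.43, 2.15 and 2.35 FPKM in HET 1 to HET 3, against 1.60, 1.15 and 1.14 FPKM in WT 1 to WT 3. The 3 TonEBP+/- values lie close together, and among the wild-type values WT 1 is the highest and nearest to them. The means were 2.31 ± 0.142 FPKM in TonEBP+/- and 1.29 ± 0.261 FPKM in wild type (SD, n = 3 each), a ratio of 1.79. On the log2(FPKM + 1) scale, which understates changes of low genes, the difference was 0.53 (SE 0.124), and with a pseudocount of 0.1 in place of 1 it was 0.80 (SE 0.191). Genotypes did not overlap in 1118 of the 13122 genes (8.52%), with TonEBP+/- higher in 542 (4.13%) and lower in 576 (4.39%). Of the 5 genes described, 1 was without overlap, Cxcr4, and since that contrast was known when the genes were chosen, nothing is read from this count. Every library had Cxcr4 at or above 1 FPKM, the filter for genes tested, so its place among the genes tested did not depend on the genotype in which it was higher.

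Cxcr4 was a low-level transcript, and few fragments stood behind each value. With its transcript of 1805 bases, the levels corresponded to about 35, 34 and 53 fragments in HET 1 to HET 3 and to about 31, 18 and 20 in WT 1 to WT 3. In sum this came to 122 fragments in TonEBP+/- and 69 in wild type, at nearly equal estimated depth (29180000 and 28980000 fragments). The exact Poisson 95% intervals, which cover counting error only and rest on the estimated fragments, were 1.71 to 3.41, 1.49 to 3.01 and 1.76 to 3.07 FPKM in HET 1 to HET 3. In WT 1 to WT 3 they were 1.10 to 2.30, 0.684 to 1.82 and 0.695 to 1.76 FPKM. Of the 9 pairs of a TonEBP+/- and a wild-type library, 8 had overlapping intervals, and HET 3 and WT 3 were the pair apart. Counting error alone amounts to 16.9%, 17.1% and 13.7% of the level in HET 1 to HET 3, while the coefficient of variation between these 3 libraries was 6.15%. In WT 1 to WT 3 it amounts to 18.0%, 23.6% and 22.4%, beside a coefficient of variation of 20.2%. The TonEBP+/- libraries thus lay closer together than the counting error of a single library.

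**Figure D1:**
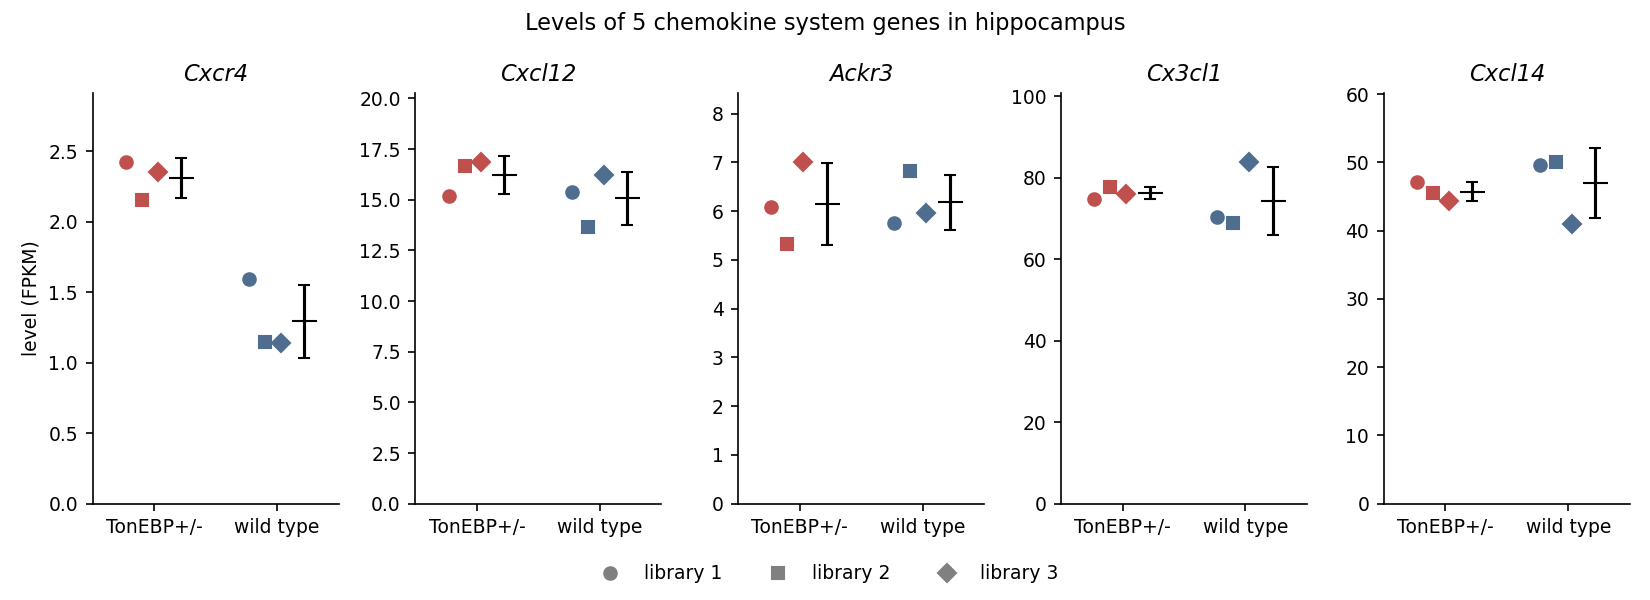
Level in FPKM (y axis, from 0, a separate scale for each gene) of Cxcr4, Cxcl12, Ackr3, Cx3cl1 and Cxcl14 in each library; symbols are libraries 1 to 3 of each genotype, and the bar beside them is the mean ± SD (n = 3). The 3 TonEBP+/- libraries lie above the 3 wild-type libraries for Cxcr4, from 2.15 to 2.43 against 1.14 to 1.60 FPKM, and the genotypes overlap for the other 4 genes.

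**Figure D2:**
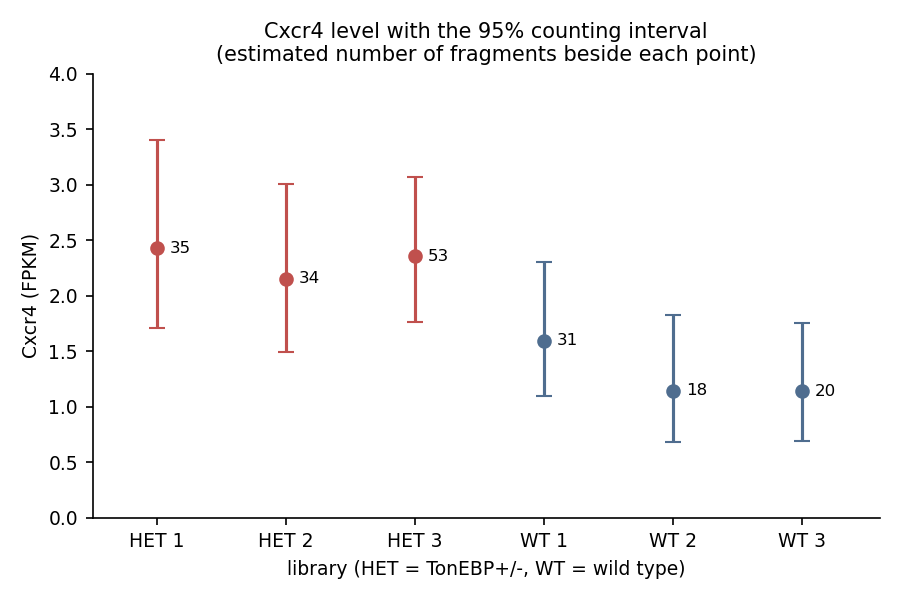
Cxcr4 level in FPKM (y axis) in each library, with the exact Poisson 95% interval of the estimated number of fragments, which is printed beside each point. The intervals overlap in 8 of the 9 pairs of a TonEBP+/- and a wild-type library, all but HET 3 and WT 3, whose bounds nearly touch.

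The other receptor of Cxcl12 showed no such separation. Ackr3 was at 6.09, 5.33 and 7.01 FPKM in HET 1 to HET 3 and at 5.75, 6.83 and 5.96 FPKM in WT 1 to WT 3. The lowest and the highest of the 6 values are both from TonEBP+/- libraries. The means were 6.15 ± 0.839 FPKM in TonEBP+/- and 6.18 ± 0.570 FPKM in wild type (SD, n = 3 each), and the log2 difference was -0.01 (SE 0.110). Per length, Ackr3 was the more abundant of the 2 receptors in every library: its level was 2.51, 2.48 and 2.98 times that of Cxcr4 in HET 1 to HET 3, against 3.60, 5.96 and 5.23 times in WT 1 to WT 3.

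The ligand Cxcl12 lies on chromosome 6 from 117168535 to 117181367, plus strand, with coding transcripts of 1878 to 5627 bases, so that its level per length depends on which of them the authors counted. It was at 15.2, 16.7 and 16.9 FPKM in HET 1 to HET 3, against 15.4, 13.6 and 16.2 FPKM in WT 1 to WT 3. The ranges overlap, with HET 1 below WT 1 and WT 3, and WT 2 the lowest of all. The means were 16.2 ± 0.934 FPKM in TonEBP+/- and 15.1 ± 1.31 FPKM in wild type (SD, n = 3 each), with a log2 difference of 0.10 (SE 0.0847). With a covariate for mean thalamus marker level this difference was 0.02 (SE 0.1065) and that of Cxcr4 was 0.57 (SE 0.166). Without HET 2 and HET 3, the libraries low in those markers, the values were 0.01 and 0.58, with HET 1 alone set against the wild-type libraries. The part of thalamic content in either difference was not tested. The amount of ligand transcript per receptor transcript followed from these levels: Cxcl12 was at 6.25, 7.75 and 7.17 times the level of Cxcr4 in HET 1 to HET 3, against 9.65, 11.9 and 14.2 times in WT 1 to WT 3. The values of this ratio do not overlap between genotypes, which restates the difference of Cxcr4. Relative to Ackr3, Cxcl12 was at 2.49, 3.13 and 2.41 times in HET 1 to HET 3 and at 2.68, 2.00 and 2.72 times in WT 1 to WT 3, and these ranges overlap.

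Cx3cl1 was the most abundant of the 5 genes per length. It lies on chromosome 8 from 94772009 to 94782427, plus strand, with a transcript of 3315 bases in 3 exons. It was at 74.8, 77.8 and 76.0 FPKM in HET 1 to HET 3, against 70.4, 68.8 and 83.9 FPKM in WT 1 to WT 3, so that all TonEBP+/- values fall inside the wild-type range. The means were 76.2 ± 1.50 FPKM in TonEBP+/- and 74.4 ± 8.30 FPKM in wild type (SD, n = 3 each), with a log2 difference of 0.04 (SE 0.0832). Its receptor Cx3cr1, the microglial gene, was at 9.38, 8.21 and 6.43 FPKM in HET 1 to HET 3 and at 10.2, 7.54 and 8.47 FPKM in WT 1 to WT 3. The log2 difference of Cx3cr1 was -0.12 (SE 0.140, limma adjusted p = 1.00). Cx3cr1 is annotated with a span that overlaps 9 other genes, and the handling of reads in such overlaps is not known here.

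Cxcl14 lies on chromosome 13 from 56288643 to 56296551, minus strand. It was at 47.2, 45.6 and 44.4 FPKM in HET 1 to HET 3, against 49.7, 50.1 and 41.0 FPKM in WT 1 to WT 3. As for Cx3cl1, the TonEBP+/- values fall inside the wild-type range, and WT 3 lies farthest from the others. The means were 45.7 ± 1.41 FPKM in TonEBP+/- and 46.9 ± 5.12 FPKM in wild type (SD, n = 3 each), with a log2 difference of -0.03 (SE 0.0852).

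Ordered by level, the genes ran Cx3cl1 (68.8 to 83.9 FPKM over the 6 libraries), Cxcl14 (41.0 to 50.1), Cxcl12 (13.6 to 16.9), Ackr3 (5.33 to 7.01) and Cxcr4 (1.14 to 2.43). No neighbours in this order overlapped in their ranges over the 6 libraries. Ligands were thus above receptors, and Cxcr4 stood above only 8.83% of the genes tested by mean log2 level, where Cx3cl1 stood above 93.0%. The spread over all 6 libraries relative to the mean was 32.6% for Cxcr4 and 7.21% to 10.4% for the other 4.

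Pairs of these genes were then set against each other over the 6 libraries, as 10 correlations of log2 values. Cx3cl1 and Cxcl14 ran opposite to each other, with Pearson r = -0.97 (two-sided exact permutation p = 0.00556, 0.0556 after Benjamini-Hochberg adjustment over the 10 pairs) and Spearman rho = -0.94 (two-sided exact permutation p = 0.0167, adjusted 0.167). The adjusted values did not pass 0.05. Without WT 2 and WT 3, the libraries farthest from the median of Cx3cl1, r was -0.88 over the other 4. Within genotypes, over 3 libraries each, r was -0.47 in TonEBP+/- and -0.998 in wild type. In WT 3 Cx3cl1 was at its highest and Cxcl14 at its lowest. Cxcr4 had r = 0.51 with Cxcl12 (exact permutation p = 0.314, adjusted 0.785; rho = 0.20, exact permutation p = 0.714, adjusted 1.00), and r fell to 0.31 without WT 2 and WT 3. With Ackr3 it had r = -0.09 (exact permutation p = 0.850, adjusted 0.986; rho = 0.20, exact permutation p = 0.714, adjusted 1.00), and r was 0.44 without the same libraries. Every other pair had an adjusted p of 0.352 or more for Pearson's r by the same exact permutation test.

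Genes whose log2 values followed each member most closely were taken from 11748 named protein-coding genes by Pearson's r over the 6 libraries, as a description; with so few libraries, high values are common. For Cxcr4 they were Pax6 (r = 0.98), a transcription factor gene, Renbp (0.98), which encodes renin-binding protein, Shc1 (0.98), an adaptor of receptor tyrosine kinases, Chsy1 (0.98), a chondroitin synthase gene, and Eif3g (0.98), a translation initiation factor gene. Each of these 5 had no overlap between genotypes (8.52% of all genes), which follows from their choice by likeness to Cxcr4 and is no further result. Pax6, for example, was at 3.33, 3.18 and 3.23 FPKM in HET 1 to HET 3, against 2.97, 2.53 and 2.65 FPKM in WT 1 to WT 3. In all, 9 genes had r above 0.95 with Cxcr4, against 25 for Cxcl12, 73 for Ackr3, 32 for Cx3cl1 and 13 for Cxcl14. Closest to Cxcl12 were Dkk3 (r = 0.99), a secreted glycoprotein gene, Per3 (0.98), a clock gene, and Plxna2 (0.98), a semaphorin receptor gene. Closest to Ackr3 were Nifk, Ccdc171 (r = 1.00 each) and Cog2 (0.99), to Cx3cl1 Etv5, Foxj2 and Nipsnap1 (0.99 each), and to Cxcl14 Pold2 (0.99), Gatad1 (0.98) and Gar1 (0.97).

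The remaining chemokine system was mostly at low levels in this tissue. Of 21 other chemokine receptor genes considered, 2 reached 1 FPKM in 3 libraries or more and were tested: Cx3cr1, given above, and Ackr1. Ackr1, an atypical receptor of venules and erythroid cells, was at 3.74, 7.19 and 5.15 FPKM in HET 1 to HET 3, against 7.86, 5.25 and 5.96 FPKM in WT 1 to WT 3 (log2 difference -0.23, SE 0.207, limma adjusted p = 1.00). It overlaps Cadm3 on the same strand and is uncertain. The median difference of these 2 receptors was -0.17, beside -5.0e-06 over all genes tested, with 0 higher, 2 lower and 0 past the threshold. The other 19 receptor genes were at 0.870 FPKM or less in every library, and 2 of them, Ccr8 and Cxcr1, were listed at 0 in all 6.

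Of 38 other chemokine ligand genes, 7 were tested, with 6 higher, 1 lower and 0 past the threshold at a median difference of 0.21. A ligand that reached the filter through its TonEBP+/- values had to be higher there, which was the case for Ccl12, and the count is given with that limit. Ccl27a, a ligand of epithelia, was at 31.3, 33.5 and 42.3 FPKM in HET 1 to HET 3, against 31.6, 29.3 and 27.7 FPKM in WT 1 to WT 3. Its log2 difference was 0.26 (SE 0.108, limma adjusted p = 1.00), and as it overlaps Il11ra1 on the opposite strand and has a near-identical copy, Ccl27b, listed at 0, its level is uncertain. Ccl25, a ligand of thymus and gut, was at 4.48, 4.14 and 4.23 FPKM in HET 1 to HET 3 and at 4.17, 3.41 and 3.15 FPKM in WT 1 to WT 3 (log2 difference 0.21, SE 0.110, limma adjusted p = 1.00). Ccl12, a monocyte attractant, was at 1.33, 1.25 and 1.69 FPKM in HET 1 to HET 3, against 0.965, 1.22 and 0.822 FPKM in WT 1 to WT 3 (log2 difference 0.28, SE 0.137, limma adjusted p = 1.00). It was the 1 gene of the 9 other chemokine genes tested without overlap between genotypes, against 8.52% of all genes.

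The 4 ligands that remain overlapped between genotypes. Pf4, the platelet chemokine, had a log2 difference of 0.25 (SE 0.262), Cxcl5, a neutrophil attractant, of 0.20 (SE 0.221), Ccl6, a ligand of myeloid cells, of 0.02 (SE 0.143) and Ccl19, the ligand of Ccr7, of -0.04 (SE 0.249), each with a limma adjusted p of 1.00. Ccl25, Ccl6 and Ccl19 overlap a gene on the opposite strand and are uncertain as well. The 31 ligand genes that were not tested reached at most 1.60 FPKM, in Ccl8, and 7 of them, among them Cxcl2 and Cxcl3, were listed at 0 in all 6 libraries.

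**Figure D3:**
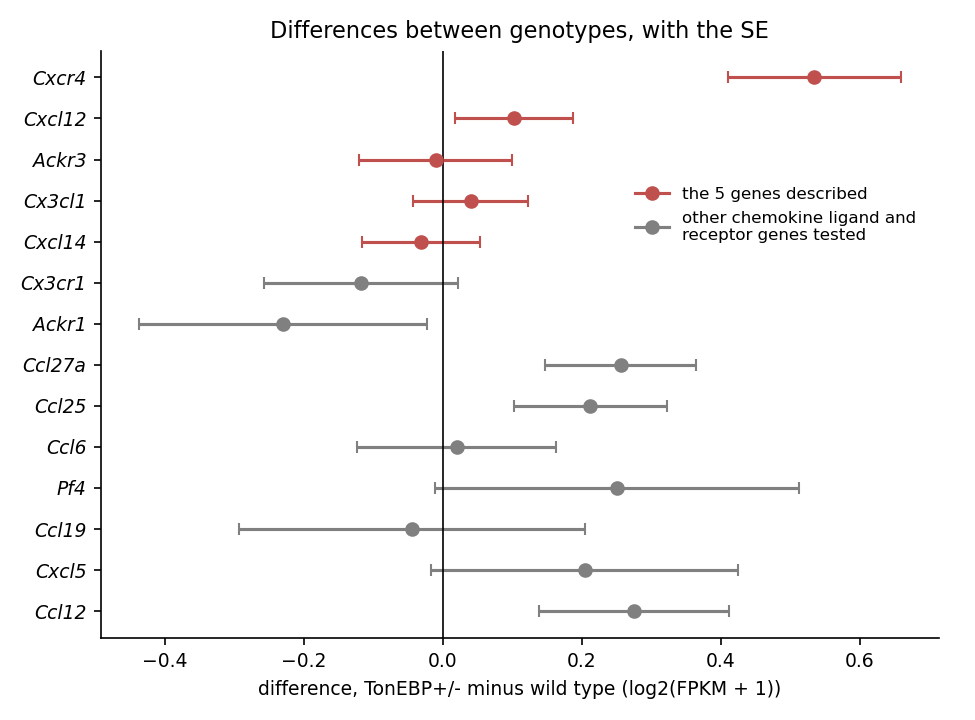
Difference between genotypes, TonEBP+/- minus wild type, on the log2(FPKM + 1) scale (x axis) with its SE from limma, for the 5 genes described (red) and 9 other chemokine ligand and receptor genes tested (grey). Cxcr4 lies at 0.53, the other 4 of the 5 genes lie between -0.03 and 0.10, and the grey genes lie between -0.23 and 0.28.

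Genes that act with Cxcr4 inside the cell were described next. All 26 genes of coupling and signalling, among them G protein subunits, arrestins, receptor kinases and migration genes, were tested. Of these, 10 were higher and 16 lower, 0 passed the threshold, and the median difference was -0.01. Elmo1, which activates Rac with Dock proteins in migrating cells, was at 16.3, 12.6 and 11.8 FPKM in HET 1 to HET 3, against 15.7, 18.3 and 19.0 FPKM in WT 1 to WT 3. Its log2 difference was -0.37 (SE 0.120, limma adjusted p = 1.00). HET 1 lay between WT 1 and WT 2, while HET 2 and HET 3, the libraries low in thalamus markers, were the lowest. The part of thalamic content in this value was not tested. Grk5, a kinase that phosphorylates activated receptors, had a log2 difference of -0.19 (SE 0.124), Ptk2b, a focal adhesion kinase gene, of -0.14 (SE 0.0915), and Rac1, a GTPase gene, of -0.13 (SE 0.0872), each with a limma adjusted p of 1.00.

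Of 11 genes for ligand processing and co-receptors, 8 were tested, with 5 higher, 3 lower, 0 past the threshold and a median difference of 0.02. Cd74, which binds Mif and pairs with Cxcr4, was at 1.80, 1.80 and 4.70 FPKM in HET 1 to HET 3, against 1.38, 2.29 and 1.26 FPKM in WT 1 to WT 3 (log2 difference 0.45, SE 0.293, limma adjusted p = 1.00), and HET 3 alone is far above the rest. Adam10 and Adam17 encode the proteases that release Cx3cl1 from the membrane. Adam10 was at 31.2, 30.8 and 30.7 FPKM in HET 1 to HET 3, against 32.6, 32.3 and 32.4 FPKM in WT 1 to WT 3. Its log2 difference was -0.07 (SE 0.0614, limma adjusted p = 1.00). It was the 1 gene of the 8 tested without overlap, against 8.52% of all genes. Adam17 had a log2 difference of 0.10 (SE 0.0908) and Sdc4, a heparan sulfate proteoglycan gene, of -0.08 (SE 0.108), each with a limma adjusted p of 1.00.

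Of 12 genes of transcriptional control, which are factors known to act on Cxcr4 or Cxcl12, the Hif1a regulators Vhl and Cited2, and Nfat5, 3 were higher, 9 lower and 0 past the threshold, at a median difference of -0.10. Nr3c1, the glucocorticoid receptor gene, was at 36.7, 34.4 and 35.2 FPKM in HET 1 to HET 3, against 38.9, 37.8 and 38.3 FPKM in WT 1 to WT 3 (log2 difference -0.11, SE 0.0631, limma adjusted p = 1.00). It was the 1 gene of these 12 without overlap, against 8.52% of all genes. Klf2, an endothelial factor, had a log2 difference of -0.19 (SE 0.127), Cited2, an inhibitor of the hypoxia response, of -0.26 (SE 0.180), and Rela, an NF-kB subunit gene, of -0.16 (SE 0.116), each with a limma adjusted p of 1.00. Over all 5 pathway lists, 55 of 108 genes were tested and 0 passed, beside 0% of all genes.

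Cell types that carry these genes were followed through marker lists, summed in FPKM. The sums overlapped between genotypes in all 16 lists, but a sum can rest on 1 abundant gene. Without the most abundant gene of each list, a choice made after seeing the data, 14 lists overlapped. The other 2, those of neurogenic progenitors and excitatory neurons, were higher in every TonEBP+/- library. Single genes were without overlap, in either direction, in 8.52% of those tested. By the mean log2 level of the genes tested, all 16 overlapped. Fewer cells of a type and less RNA per cell cannot be told apart in tissue RNA. Microglia markers, 12 of 12 tested, summed to 171 to 206 FPKM in TonEBP+/- and 175 to 195 FPKM in wild type, and with their mean as a covariate the log2 difference of Cxcr4 was 0.53. Endothelial markers, 12 of 12 tested, summed to 126 to 144 FPKM in TonEBP+/- and 123 to 138 FPKM in wild type. Neurogenic progenitor markers, 5 of 10 tested, summed to 34.6 to 42.0 FPKM in TonEBP+/- and 36.9 to 41.6 FPKM in wild type. Calb2, a calretinin gene that also stands in the Cajal-Retzius and thalamus lists, made up 58.1% to 67.9% of this sum. Without Calb2 the sums were 14.1, 14.5 and 13.9 FPKM in HET 1 to HET 3, against 13.8, 12.7 and 13.7 FPKM in WT 1 to WT 3, with no overlap. HET 3 and WT 1 were close, and of the 5 genes tested 0 were without overlap when taken singly. The part of these cells in the Cxcr4 levels was not tested. Excitatory neuron markers without Camk2a summed to 808.0, 805.5 and 789.7 FPKM in HET 1 to HET 3. In WT 1 to WT 3 they summed to 773.0, 723.6 and 788.5 FPKM, also with no overlap, but HET 3 and WT 3 were nearly equal. Pericyte and smooth muscle markers, 8 of 10 tested, had 7 higher and 1 lower. Their sums were 72.2, 109 and 82.4 FPKM in HET 1 to HET 3, against 79.2, 70.5 and 93.4 FPKM in WT 1 to WT 3. Only HET 2 lay above the wild-type range. Of the genes not tested, Kcnj8 was lower and Anpep higher in every TonEBP+/- library than in every wild-type library. Both were at 1.46 FPKM or less in all libraries, and 8.52% of all genes tested were without overlap, so nothing is read from them. Cajal-Retzius markers, 3 of 7 tested, summed to 30.3 to 35.5 FPKM in TonEBP+/- and 32.8 to 37.2 FPKM in wild type.

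Blood cells carry much Cxcr4. Leukocyte markers, of which 2 of 15 were tested, summed to 4.97, 3.94 and 2.84 FPKM in HET 1 to HET 3, against 1.81, 1.93 and 3.95 FPKM in WT 1 to WT 3. The sums overlap through WT 3. The neutrophil gene S100a9 was at 0.695, 1.62 and 1.32 FPKM in HET 1 to HET 3, against 0.250, 0 and 0.859 FPKM in WT 1 to WT 3. Its partner S100a8 was at 2.28, 1.09 and 7.45e-04 FPKM in HET 1 to HET 3, against 1.48e-04, 0.523 and 1.41 FPKM in WT 1 to WT 3. Ptprc made up 22.7% to 61.1% of the sum. It was at 1.13, 1.03 and 0.988 FPKM in HET 1 to HET 3, against 1.11, 0.956 and 1.32 FPKM in WT 1 to WT 3. Each of these genes overlaps between genotypes. Camp, another neutrophil marker, and Nkg7, of cytotoxic cells, were listed at 0 in all 6 libraries. The part of blood cells in the Cxcr4 levels was not tested. Meningeal fibroblasts carry Cxcl12, and their markers, 12 of 14 tested with 12 higher and 0 lower, summed to 80.4, 125 and 115 FPKM in HET 1 to HET 3 and to 82.7, 95.6 and 74.3 FPKM in WT 1 to WT 3. HET 2 and HET 3, highest in these sums, were also highest in Cxcl12, while WT 3, lowest in these sums, was the next highest in Cxcl12. The part of meningeal tissue in the Cxcl12 levels was not tested.

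**Figure D4:**
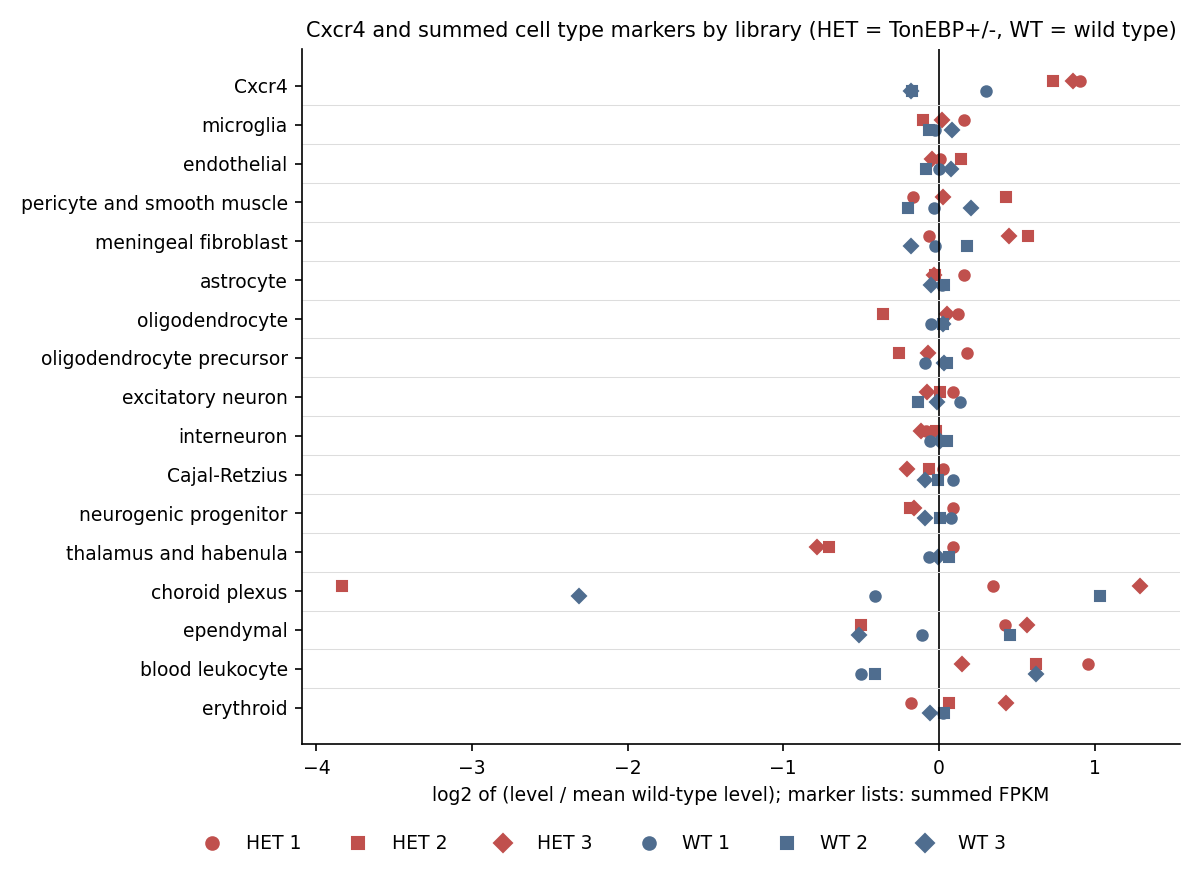
Level of Cxcr4 and summed level of 16 cell type marker lists in each library, as log2 of the ratio to the wild-type mean (x axis); red symbols are TonEBP+/- libraries and blue symbols wild-type libraries. Cxcr4 separates the genotypes, and the full sums of all 16 marker lists overlap. Without Calb2 and Camk2a, the sums of neurogenic progenitors and excitatory neurons do not overlap, by narrow margins. The choroid plexus markers vary most, from 99.5 to 3472 FPKM in TonEBP+/- and from 286 to 2905 FPKM in wild type.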

How the data were processed

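RNA from hippocampus was made into libraries with a directional kit, per the labels' protocols, and the submitters' processing notes name TopHat and mm10. No source used here gives the annotation, the abundance program or its strand setting. The deposited log2 values, 1 table per library with no unit named, were read as log2(FPKM + 1). The 13122 genes that reached 1 FPKM in 3 libraries or more entered limma 3.58.1 (R 4.3.3), with genotype as the only term, trend and robust options and Benjamini-Hochberg adjustment over all of them at 0.05. The procedure was tested on simulated data.

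Depth was estimated from low values (0.01 to 0.6 FPKM) of genes with a single transcript in GENCODE M21 (GRCm38), as the fragment total at which they fell nearest to whole fragments. Within 0.15 of a whole number lay 63.4% to 66.3% of these values, by library. Fragments per gene used its shortest coding transcript of at least 1 kb. Promoter windows are from RefSeq, and the Nrf1 unit was searched after a longer form of the site had been found before Cxcr4. Library pairs correlated at r = 0.97 to 0.98 over genes, and 0 pairs were identical.

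The 5 genes, the lists and the tests were chosen with earlier results of these data known. Genes were named by rule: the 5 genes, other chemokine genes that were tested, up to 4 genes with the smallest p per further list, and the genes most like each of the 5. Values given for single genes outside this rule, such as untested chemokines, were chosen after they were seen. The allele, strain and age come from the labels. A gene of the receptor list and one of the leukocyte list are not reported here and were left out of the counts of those lists.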

Additional observations from a re-analysis of the deposited data

How the results depend on the processing

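The log2 difference of Cxcr4 was 0.80 with a pseudocount of 0.1 in place of 1, since the added 1 shrinks differences of low genes. It lay between 0.52 and 0.57 under the other alternatives with all 6 libraries that could give it, and with a mean of at least 5 FPKM it could not be fitted because Cxcr4 is below that level. Leaving out 1 library, Cxcr4 ranged from 0.49 to 0.63, Cxcl12 from 0.04 to 0.15, Ackr3 from -0.10 to 0.07, Cx3cl1 from -0.01 to 0.13 and Cxcl14 from -0.12 to 0.02, so that the sign of the last 3 depended on single libraries. Cxcl14 was at 0.01 with the thalamus covariate. The count of genes past the threshold, 0 as reported and 0 at an adjusted p of 0.1, ranged from 0 to 8 when 1 library was left out. It was 8 without HET 1, and 1 each without HET 3 (Rn45s), WT 1 (Snord57) and WT 2 (Rims1). The 8 were Adarb1, Inadl, Plcb4, Plekhg1, Prkcd, Scn4b, Shox2 and Slc17a6, all lower in TonEBP+/-. Of these, Plekhg1, Prkcd, Shox2 and Slc17a6 stand in the thalamus and habenula list. With neither HET 2 nor HET 3, an alternative chosen after seeing the data, HET 1 alone stood for TonEBP+/-, so its count is not given. None of the genes past the threshold was a chemokine or pathway gene: the count over those lists stayed at 0 under every alternative run. With the replicate number as a block the log2 difference of Cxcr4 was 0.53 and the count 0. Libraries with the same number did not deviate together (r = -0.25 to -0.16). As values were centred within the 3 libraries of a genotype, these r values constrain each other. They do not show whether the numbers pair libraries. HET 2 and WT 2 had 6917 and 6210 genes at exactly 0, against 4262 in each of HET 1, HET 3, WT 1 and WT 3. Further genes stood at very small values above 0. These were 2199 in HET 1, 2394 in HET 3, 2584 in WT 1 and 2609 in WT 3, against 3 in HET 2 and 14 in WT 2. The gap thus lay largely between an exact 0 and a very small value, and is no count of genes lost from HET 2 and WT 2. The source of this likeness of HET 2 and WT 2 was not tested. The estimated depth limits Cxcr4 most, at 18 to 53 fragments per library.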
